A study of Mus musculus with 4 samples.

Results

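The 9 genes described here encode 4 semaphorins (*Sema4a*, *Sema4b*, *Sema4d* and *Sema7a*), 4 plexins (*Plxna1*, *Plxnb2*, *Plxnc1* and *Plxnd1*) and the neuropilin *Nrp1*. They were taken by name, with earlier results of these data known. They are 9 of the 41214 genes in a table of RNA-seq read counts from splenic B220+ cells. The cells came from MIZ-1WT mice (2 libraries) and MIZ-1△POZ mice (2 libraries), both on the C57BL/6 background, and were enriched on beads for B220, a CD45 isoform of B cells. In MIZ-1△POZ mice (MB1-Cre x Miz-1floxPOZ) the POZ domain of the zinc finger transcription factor MIZ-1, encoded by *Zbtb17*, is removed by a Cre recombinase under control of the *Cd79a* (*mb1*) promoter, so the deletion is made in B lineage cells and other cells of the spleen keep the intact gene. Whether the MIZ-1WT mice carried the Cre transgene, and how many mice went into a library, is not given in the sources used here. The extract protocol in the labels speaks of a biological duplicate for RNA-seq, so each test rests on 2 samples against 2. Its p-value sets the difference between the genotypes against the spread within them. The test estimates that spread partly from all tested genes.

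Semaphorins are secreted or membrane-bound guidance cues first studied in growing axons, and plexins are their main receptors. Binding of a semaphorin opens the GTPase-activating domain in the plexin's cytoplasmic tail, which turns off small R-Ras and Rap GTPases and so loosens integrin adhesion and remodels actin. Neuropilins have short cytoplasmic tails and serve as co-receptors, above all for the secreted class 3 semaphorins, which signal through complexes of a neuropilin and a class A plexin or Plexin-D1. Several members act in the immune system: SEMA4D (CD100) binds Plexin-B1 and, on lymphocytes, CD72. SEMA7A, which is held in the membrane by a lipid anchor, binds Plexin-C1 and integrin alpha1 beta1.

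Gene counts summed to between 43026814 and 46387209 per library, and the test covered the 14554 genes that reached 10 counts or more in 2 or more libraries. *Zbtb17* had 47.1 ± 1.09 CPM (counts scaled to a common library size; mean ± SD, n = 2) in MIZ-1WT and 37.7 ± 0.533 in MIZ-1△POZ cells (log2 fold change -0.32 ± 0.06, SE), and counts over the whole gene do not show whether the POZ exons are gone. The labels give no sex, but *Xist*, which is transcribed from the inactive X chromosome, had 1.12 and 1.43 CPM in the MIZ-1WT libraries and 801 and 930 CPM in the MIZ-1△POZ libraries. The 4 Y-linked genes summed to 848 and 844 CPM against 38.1 and 39.3 CPM. Sex and genotype therefore cannot be told apart in any comparison below. All 10 B cell markers were present, at a summed 13541 and 13893 CPM in MIZ-1WT and 11252 and 11662 CPM in MIZ-1△POZ cells. The 16 macrophage markers, led by *Vcam1*, *Slc40a1* and *Mrc1*, were all called higher in MIZ-1△POZ cells, at a summed 980 and 1305 against 5839 and 3650 CPM.

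RefSeq windows of 300 bases around the start of transcription (250 bases before it and 50 from it, GRCm38.p6) matched 8 of the 9 members, with none for *Plxna1*. They are printed for 5 members, 5′ to 3′ on the gene's strand, 4 from genes that were called higher in MIZ-1△POZ cells and that of *Plxnc1*, which was not, so that the sequences can be read against the values. Capitals mark the GC box, GGGCGG or its reverse complement CCGCCC, a sequence bound by SP-family factors. The windows lie at chr15:89180739-89181038 (*Plxnb2*, minus strand), chr6:115994956-115995255 (*Plxnd1*, minus strand), chr8:128358823-128359122 (*Nrp1*, plus strand), chr9:57939862-57940161 (*Sema7a*, plus strand) and chr10:94944796-94945095 (*Plxnc1*, minus strand).
Plxnb2: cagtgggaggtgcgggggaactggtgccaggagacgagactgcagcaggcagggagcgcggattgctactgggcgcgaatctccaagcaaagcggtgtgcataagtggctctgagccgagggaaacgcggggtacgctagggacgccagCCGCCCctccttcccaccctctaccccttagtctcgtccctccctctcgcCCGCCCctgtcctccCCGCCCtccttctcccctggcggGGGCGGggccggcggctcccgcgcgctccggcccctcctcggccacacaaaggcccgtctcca
Plxnd1: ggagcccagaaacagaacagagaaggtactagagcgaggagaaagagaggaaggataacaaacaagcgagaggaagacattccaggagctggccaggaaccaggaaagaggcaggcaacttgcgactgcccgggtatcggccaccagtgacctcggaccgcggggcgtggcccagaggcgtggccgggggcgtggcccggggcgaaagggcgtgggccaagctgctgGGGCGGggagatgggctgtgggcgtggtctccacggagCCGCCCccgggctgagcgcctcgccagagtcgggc
Nrp1: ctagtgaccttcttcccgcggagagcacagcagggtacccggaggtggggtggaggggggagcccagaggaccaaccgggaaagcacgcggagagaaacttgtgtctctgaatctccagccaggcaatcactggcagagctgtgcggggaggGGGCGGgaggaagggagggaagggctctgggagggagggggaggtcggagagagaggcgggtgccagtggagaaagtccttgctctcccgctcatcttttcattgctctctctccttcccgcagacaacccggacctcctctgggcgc
Sema7a: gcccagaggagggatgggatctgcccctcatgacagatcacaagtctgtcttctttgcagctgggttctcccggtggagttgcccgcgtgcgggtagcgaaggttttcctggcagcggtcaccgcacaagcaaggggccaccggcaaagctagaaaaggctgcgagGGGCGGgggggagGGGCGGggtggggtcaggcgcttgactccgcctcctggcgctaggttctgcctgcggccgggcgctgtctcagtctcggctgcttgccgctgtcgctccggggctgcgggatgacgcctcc
Plxnc1: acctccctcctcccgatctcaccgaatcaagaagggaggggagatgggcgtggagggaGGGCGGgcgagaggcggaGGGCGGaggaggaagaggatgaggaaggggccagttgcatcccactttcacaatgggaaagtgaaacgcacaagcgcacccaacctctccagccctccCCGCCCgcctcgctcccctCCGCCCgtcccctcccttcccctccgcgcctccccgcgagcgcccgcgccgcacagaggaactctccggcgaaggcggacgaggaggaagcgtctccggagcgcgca

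These windows were rich in G and C. They held 70.3% G and C with 27 CpG dinucleotides at *Plxnb2*, 67.0% with 23 at *Plxnd1*, 64.0% with 14 at *Nrp1*, 67.3% with 23 at *Sema7a* and 69.0% with 30 at *Plxnc1*. The window of *Sema4b* (chr7:80186620-80186919) was alike at 65.3% with 26 CpG, whereas those of *Sema4a* (chr3:88461133-88461432, 59.7%, 4 CpG) and *Sema4d* (chr13:51756634-51756933, 52.0%, 2 CpG) were nearer the median of 52.7% and 7 CpG over 32817 windows. RefSeq lists several starts for some members (4 for *Sema4a*, 3 for *Sema4d*, 2 for *Sema4b* and *Plxnb2*), and the window nearest the annotated 5′ end of the gene was taken. For *Sema4d* that start is internal, 37064 bases into the gene, and its 3 windows held 2 to 3 CpG. The 4 windows of *Sema4a* held 4 to 14 CpG. GC boxes numbered 4 at *Plxnb2* and *Plxnc1*, 2 at *Plxnd1*, *Sema7a* and *Sema4b*, 1 at *Nrp1* and *Sema4a* and 0 at *Sema4d*, and 35.6% of all windows held at least 1. Neither ATCGAT, a core sequence of MIZ-1 sites, nor the E-box CACGTG bound by MYC and its relatives was found on either strand in any of the 8 windows, while 0.926% and 7.15% of all windows held them. Of the genes not called, *Plxnc1* had a window as rich in CpG and GC boxes as that of *Plxnb2*, which was called higher. The windows of *Sema4a* and *Sema4d*, also not called, were poorer in both. Whether the content of a window goes with the calls was not tested.

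All 9 members passed the filter on low counts, with at least 73 counts in every library. Of these, 6 were called higher in MIZ-1△POZ cells (*Nrp1*, *Plxnb2*, *Plxna1*, *Sema7a*, *Plxnd1* and *Sema4b*), 0 were called lower and 3 were not called (*Sema4a*, *Plxnc1* and *Sema4d*), at an adjusted p under 0.05 (quasi-likelihood F test of edgeR, p adjusted over all genes tested by the Benjamini-Hochberg method). By the same criterion 40.0% of all tested genes were called, 21.1% higher and 18.9% lower. In 8 of the 9 members both MIZ-1△POZ libraries lay above both MIZ-1WT libraries, as they did in 37.2% of all tested genes (the groups stood apart in either direction in 74.8%). The study's limits were a log2 fold change of 0.6 either way and a p limit of 0.05, applied here to the unadjusted edgeR p. With them 5 members were higher and 0 lower, against 15.0% and 5.30% of all tested genes. At an unadjusted p under 0.05, 7 members were higher and 0 lower, against 26.0% and 24.3% of all tested genes. DESeq2's Wald test called 6 members higher and 0 lower, against 17.4% and 16.4% of the 14910 genes to which it gave an adjusted p. The median log2 fold change (MIZ-1△POZ over MIZ-1WT) was 0.65 over the 9 members and -0.01 over all tested genes. Because the members were chosen with earlier results of these data known, these counts and shares describe them and do not test the set. Without MIZ-1WT replicate 1 the fit called 5 members and 2222 of all genes, and without MIZ-1WT replicate 2 it called 5 members and 2843 genes, in place of 5822 genes. RNA of a whole cell preparation was counted, so more cells of one type and more RNA per cell cannot be told apart for any of these genes.

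**Figure D1:**
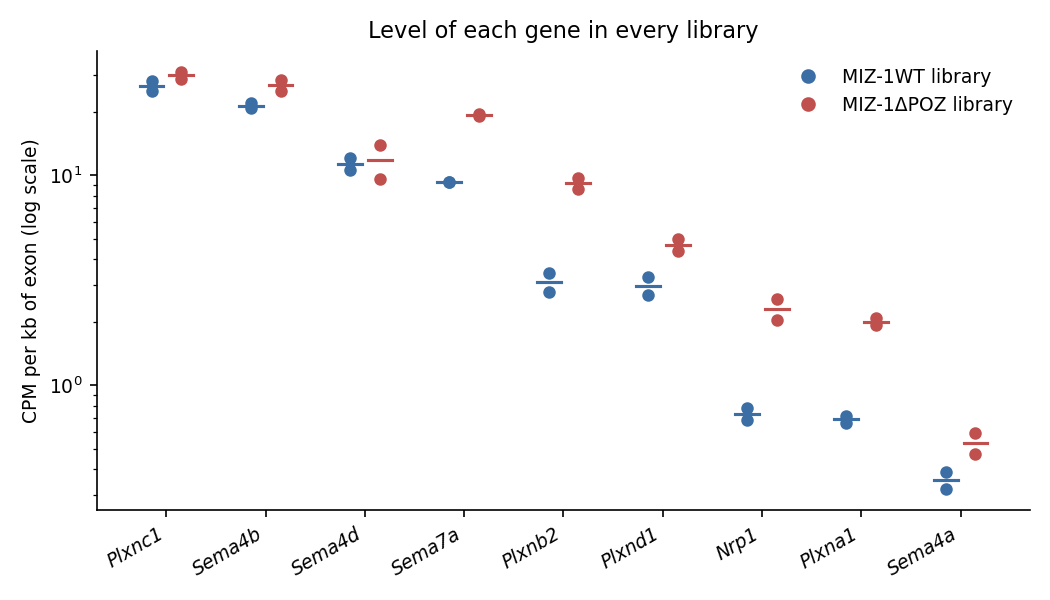
Each point is the level of one gene in one library, in CPM per kb of exon on a log scale, with MIZ-1WT libraries in blue, MIZ-1△POZ libraries in red and a bar at each group's mean. The points of *Nrp1*, *Plxnb2*, *Plxna1* and *Sema7a* stand apart between the genotypes, and those of *Sema4d* overlap.

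Among the semaphorins, *Sema7a* (ENSMUSG00000038264, GRCm38 chr9:57940112-57962865, plus strand) differed most clearly between the genotypes. It had 30.8 CPM in both MIZ-1WT libraries and 63.5 and 64.5 CPM in the MIZ-1△POZ libraries. The libraries of a genotype lay nearly on top of each other and the groups were far apart. The log2 fold change was 1.05 ± 0.05 (SE; 95% interval 0.92 to 1.18), a 2.08-fold higher level (edgeR, adjusted p = 0.000739), and it stayed between 1.05 and 1.07 when any 1 library was left out. Of all tested genes, 10.6% had a log2 fold change at least as high.

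*Sema4b* (ENSMUSG00000030539, chr7:80186841-80226527, plus strand) encodes a membrane-bound class 4 semaphorin. Its level was 119 and 124 CPM in MIZ-1WT and 143 and 160 CPM in MIZ-1△POZ cells. The groups did not overlap, but the rise was small, at a log2 fold change of 0.32 ± 0.07 (95% interval 0.15 to 0.48) or 1.25-fold (edgeR, adjusted p = 0.0147). The call was lost without MIZ-1WT replicate 1 (log2 fold change 0.28, edgeR adjusted p = 0.108) and without MIZ-1WT replicate 2 (0.35, edgeR adjusted p = 0.0646).

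*Sema4a* (ENSMUSG00000028064, chr3:88435959-88461182, minus strand), a membrane-bound semaphorin known as a costimulator of T cells that can bind Plexin-D1, B-class plexins and TIM-2, was the least abundant member. It had 2.09 and 1.74 CPM in MIZ-1WT and 2.54 and 3.21 CPM in MIZ-1△POZ cells, from 73 to 141 counts a library. Both MIZ-1△POZ libraries were above both MIZ-1WT libraries, but the difference did not pass the test (log2 fold change 0.59 ± 0.21, 95% interval 0.06 to 1.11, edgeR adjusted p = 0.0745).

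*Sema4d* (ENSMUSG00000021451, chr13:51685529-51793747, minus strand) had 92.9 and 81.6 CPM in MIZ-1WT and 74.2 and 108 CPM in MIZ-1△POZ cells. The lowest and the highest value both came from MIZ-1△POZ cells, so the groups overlapped. The log2 fold change was 0.06 ± 0.17 (95% interval -0.37 to 0.49, edgeR adjusted p = 0.809), an interval that leaves room for a change in either direction. The sign depended on which library was left out. Without MIZ-1△POZ replicate 1 the log2 fold change was 0.31 and passed the test (edgeR adjusted p = 0.0210), without MIZ-1△POZ replicate 2 it was -0.21 (0.0820), and without MIZ-1WT replicate 2 it was -0.03 (0.928).

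Among the plexins, *Plxnb2* and *Plxna1* rose almost equally and *Plxnd1* by less, while *Plxnc1* did not pass the test. *Plxnb2* (ENSMUSG00000036606, chr15:89155549-89180788, minus strand) encodes Plexin-B2, a receptor of class 4 semaphorins, SEMA4C among them, that is known on germinal center B cells and macrophages. Its level was 21.6 and 26.6 CPM in MIZ-1WT and 74.8 and 66.9 CPM in MIZ-1△POZ cells. The lower of the MIZ-1△POZ libraries was well above the higher of the MIZ-1WT libraries. This was a log2 fold change of 1.56 ± 0.11 (95% interval 1.27 to 1.84), or 2.94-fold (edgeR, adjusted p = 0.00102).

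*Plxna1* (ENSMUSG00000030084, chr6:89316314-89362620, minus strand) encodes Plexin-A1, which pairs with neuropilins for class 3 semaphorins and binds SEMA6D with TREM2 and DAP12 (*Tyrobp*) in myeloid cells. It had 6.49 and 5.996 CPM in MIZ-1WT and 18.9 and 17.5 CPM in MIZ-1△POZ cells, with a small spread in both. Its log2 fold change was 1.54 ± 0.10 (95% interval 1.30 to 1.79), or 2.92-fold (edgeR, adjusted p = 0.00079). An antisense gene, *Gm26811*, covers 10.7% of the exons on the opposite strand, and the strand setting of the counting is not given in the sources used here.

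*Plxnd1* (ENSMUSG00000030123, chr6:115954811-115995005, minus strand) encodes Plexin-D1, the receptor of SEMA3E, best known from blood vessels and also used by thymocytes and B cells. It had 24.0 and 19.6 CPM in MIZ-1WT and 31.8 and 36.5 CPM in MIZ-1△POZ cells. The groups did not overlap, and the log2 fold change was 0.65 ± 0.12 (95% interval 0.35 to 0.95), or 1.57-fold (edgeR, adjusted p = 0.0105). When 1 library at a time was left out it lay between 0.50 and 0.80, and the highest edgeR adjusted p was 0.0496.

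*Plxnc1* (ENSMUSG00000074785, chr10:94790866-94944835, minus strand), the SEMA7A receptor, had 234 and 212 CPM in MIZ-1WT and 241 and 261 CPM in MIZ-1△POZ cells. The groups lay close together without overlap. A log2 fold change of 0.17 ± 0.07 (95% interval -0.00 to 0.34) did not pass the test (edgeR, adjusted p = 0.103), although without MIZ-1△POZ replicate 1 it was 0.23 and did (0.0365). The interval holds no rise as large as those of *Plxnb2*, *Plxna1* or *Plxnd1*.

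*Nrp1* (ENSMUSG00000025810, chr8:128358604-128503363, plus strand), the co-receptor of class 3 semaphorins and of VEGF, had the highest log2 fold change of the 9 members. Its level was 6.72 and 7.66 CPM in MIZ-1WT and 25.1 and 20.0 CPM in MIZ-1△POZ cells. The groups were far apart, and replicate 1 was the higher of the MIZ-1△POZ libraries. The log2 fold change was 1.65 ± 0.14 (95% interval 1.30 to 2.00), or 3.14-fold (edgeR, adjusted p = 0.00139). Of all tested genes, 5.65% had a log2 fold change at least as high, against 6.25% for *Plxnb2* and 6.35% for *Plxna1*. The intervals of these 3 members overlap one another.

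**Figure D2:**
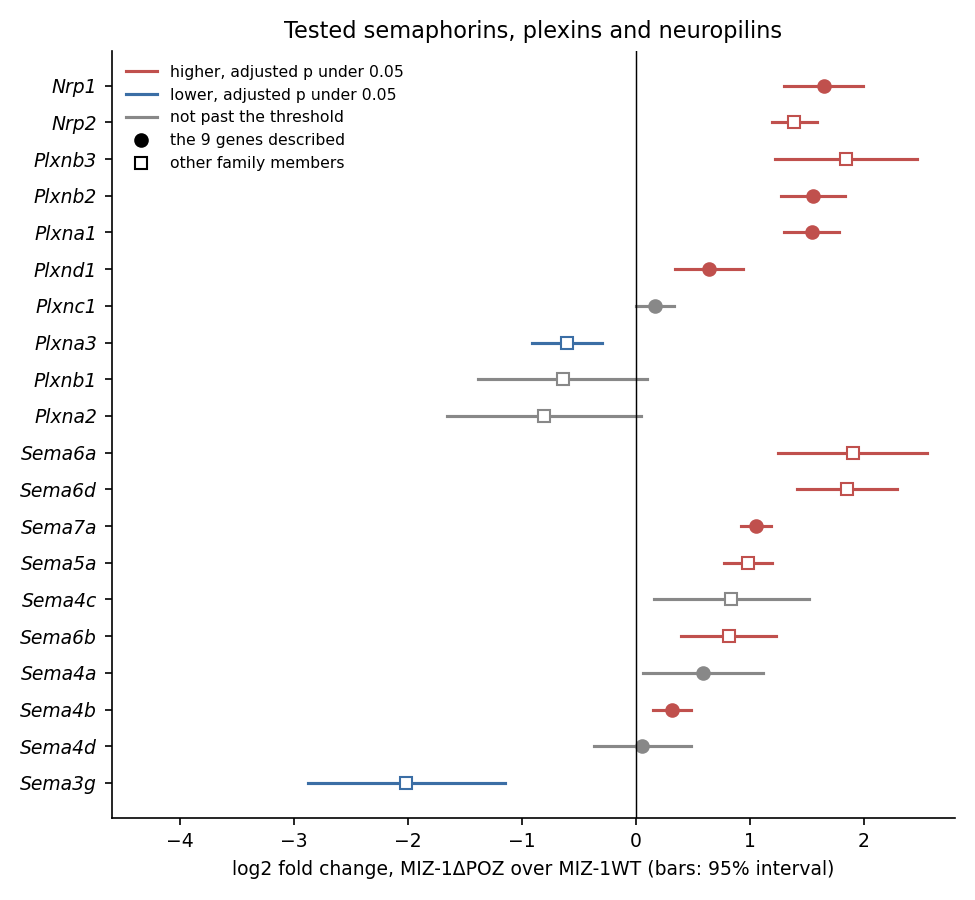
The log2 fold change (MIZ-1△POZ over MIZ-1WT) of every tested semaphorin, plexin and neuropilin, with bars for the 95% interval and a line at 0 (filled circles, the 9 members; open squares, other genes of the families; red, called higher; blue, called lower; grey, not called). Members range from 0.06 (*Sema4d*) to 1.65 (*Nrp1*), and the intervals of *Plxna3* and *Sema3g* lie below 0.

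Levels of different genes were compared per length, as CPM per kb of exon. In MIZ-1WT cells the order was *Plxnc1* (26.7 ± 1.93, SD, n = 2), *Sema4b* (21.5 ± 0.732), *Sema4d* (11.4 ± 1.04), *Sema7a* (9.35 ± 0.00535), *Plxnb2* (3.12 ± 0.454), *Plxnd1* (2.98 ± 0.428), *Nrp1* (0.735 ± 0.0682), *Plxna1* (0.689 ± 0.0384) and *Sema4a* (0.354 ± 0.0457). Of neighbours in this order, *Plxnb2* and *Plxnd1* overlapped, as did *Nrp1* and *Plxna1*. In MIZ-1△POZ cells *Plxnc1* (30.02 ± 1.68) and *Sema4b* (26.8 ± 2.11) still came first, and *Sema7a* (19.4 ± 0.225) stood above *Sema4d* (11.8 ± 3.07). *Plxnb2* reached 9.17 ± 0.728 CPM per kb, a range that overlapped that of *Sema4d* and was above *Plxnd1* (4.67 ± 0.452). *Nrp1* (2.31 ± 0.369) and *Plxna1* (2.01 ± 0.107) again overlapped each other, and *Sema4a* (0.532 ± 0.0877) remained last. Of the genes that rose most, *Nrp1* and *Plxna1* were among the less abundant members in MIZ-1WT cells. *Plxnb2* stood in the middle of the order, and *Sema4a*, the least abundant, was not called.

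The make-up of the plexin family differed between these libraries. Over the 9 plexin genes of the table, the summed level was 36.0 and 33.3 CPM per kb in MIZ-1WT and 46.01 and 47.8 CPM per kb in MIZ-1△POZ cells. *Plxnc1* made up 77.1 ± 1.23% of it in MIZ-1WT and 64.0 ± 1.87% in MIZ-1△POZ cells (n = 2 each). The share of *Plxnb2* was 9.06 ± 1.82% against 19.6 ± 2.07%, that of *Plxna1* 1.99 ± 0.00123% against 4.29 ± 0.342%, and that of *Plxnd1* 8.60 ± 0.752% against 9.96 ± 0.699%. These shares did not overlap between the genotypes, but 2 libraries against 2 allow no exact two-sided permutation p below 0.333, which is the value each has.

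Over the 20 semaphorin genes, the summed level was 45.6 and 45.3 CPM per kb in MIZ-1WT and 62.7 and 69.0 CPM per kb in MIZ-1△POZ cells. *Sema4b* made up 47.4 ± 1.79% and 40.8 ± 0.458%, *Sema4d* 25.003 ± 2.19% and 17.9 ± 3.47%, and *Sema7a* 20.6 ± 0.0888% and 29.5 ± 1.65%. The lower share of *Sema4d* went with levels that overlapped and a larger family sum. Of the neuropilins, *Nrp1* gave 41.8 ± 0.560% of the CPM per kb in MIZ-1WT and 46.1 ± 3.88% in MIZ-1△POZ cells. The share of *Nrp2* was 58.2 ± 0.560% and 53.9 ± 3.88%, although its own level rose. Each of these differences again has the smallest exact permutation p of 0.333.

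**Figure D3:**
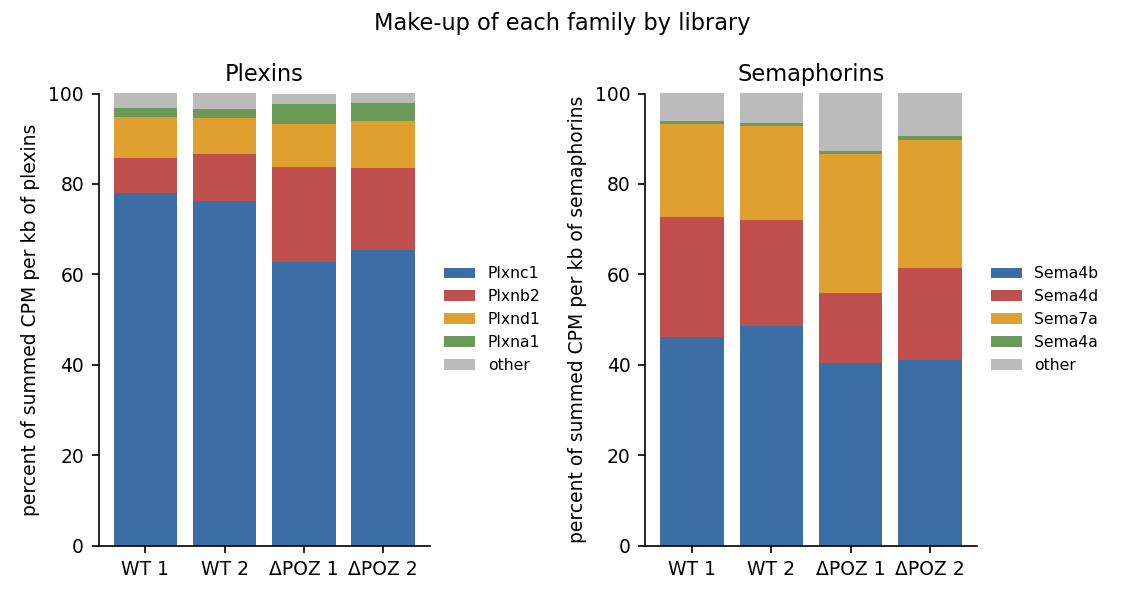
Stacked bars give the percent of each family's summed CPM per kb contributed by each member, with the other genes of the family in grey, for plexins and semaphorins in the 4 libraries. On average *Plxnc1* is 77.1% of the plexin level in MIZ-1WT and 64.0% in MIZ-1△POZ cells, and *Sema7a* is 20.6% and 29.5% of the semaphorin level.

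Across the whole families, 8 of 9 plexin genes were tested, and 4 were called higher, 1 lower and 3 not at all. Over all tested genes 21.1% were called higher and 18.9% lower. Of the 20 semaphorins 10 were tested, with 6 higher and 1 lower, and the 10 untested genes had at most 22 counts in any library. Both neuropilins were higher. Besides the members, *Nrp2*, the other neuropilin, rose from 12.1 ± 0.847 to 31.8 ± 0.144 CPM (log2 fold change 1.39 ± 0.08, edgeR adjusted p = 0.000754). *Plxnb3* rose from 0.585 ± 0.114 to 2.1 ± 0.204 CPM (1.84 ± 0.25, adjusted p = 0.00419 by edgeR), whereas *Plxna3* fell by 0.60 on the log2 scale, from 7.10 ± 0.0776 to 4.67 ± 0.165 CPM (edgeR adjusted p = 0.0142). Both of the last are X-linked. *Plxnb1*, which encodes the SEMA4D receptor Plexin-B1, had 0.769 ± 0.112 and 0.494 ± 0.0747 CPM and was not called (edgeR adjusted p = 0.140).

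Of the 6 other semaphorins tested 4 rose, all of the transmembrane classes 5 and 6. *Sema6d*, a ligand of Plexin-A1, went from 13.2 ± 1.67 to 47.7 ± 11.1 CPM (log2 fold change 1.85 ± 0.18, edgeR adjusted p = 0.00178). *Sema5a* went from 8.58 ± 0.154 to 17.0 ± 0.476 CPM (0.98 ± 0.09, edgeR adjusted p = 0.00145). *Sema6a* and *Sema6b*, at means of 1.88 and 3.86 CPM in MIZ-1△POZ cells, had log2 fold changes of 1.91 and 0.82 (edgeR adjusted p = 0.00443 and 0.0145). *Sema4c*, a ligand of Plexin-B2, had 0.937 ± 0.223 and 1.67 ± 0.306 CPM and was not called (edgeR adjusted p = 0.0571). The class 3 semaphorins, the ligands that neuropilins serve, were scarce in these cells: 6 of the 7 were not tested, at no more than 22 counts in any library, and the one tested, *Sema3g*, fell from 1.03 ± 0.0931 to 0.254 ± 0.0918 CPM (log2 fold change -2.02 ± 0.35, edgeR adjusted p = 0.00845).

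A list of 71 further genes of semaphorin signaling, these included, was read from the same fit. Of its 52 tested genes 26 were called higher, 12 lower and 14 not, against 21.1% higher and 18.9% lower over all tested genes. The list's median log2 fold change was 0.28, against -0.01 over all tested genes. Without MIZ-1WT replicate 1 the calls numbered 16 (12 higher), and without MIZ-1WT replicate 2 they numbered 22 (17 higher). Among other receptors and partners, 7 of 11 tested genes were higher and 2 lower. *Itgb1*, the beta chain of the SEMA7A integrin, rose from 101 ± 6.25 to 178 ± 24.8 CPM (log2 fold change 0.81 ± 0.10, edgeR adjusted p = 0.00333). Its partner *Itga1* rose from 0.767 ± 0.277 to 2.63 ± 0.0502 CPM (1.77 ± 0.28, edgeR adjusted p = 0.00638), and *Timd2*, which encodes the SEMA4A-binding TIM-2, from 1.35 ± 0.0965 to 4.06 ± 0.432 CPM (1.59 ± 0.19, edgeR adjusted p = 0.00286). In the other direction, *Cd72* fell from 472 ± 24.2 to 387 ± 25.6 CPM (-0.29 ± 0.07, edgeR adjusted p = 0.0206). Of the *Cd72* exons 41.6% overlap *Tesk1* on the opposite strand. *Erbb2*, a receptor tyrosine kinase that associates with B-class plexins, rose (1.53 ± 0.23, edgeR adjusted p = 0.0054), and *L1cam*, an X-linked adhesion molecule that partners Neuropilin-1 in neurons, fell (-0.90 ± 0.21, edgeR adjusted p = 0.0192).

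Downstream genes went both ways, as did all tested genes (21.1% called higher, 18.9% lower). Of 15 tested GTPases and regulators, 7 were higher and 3 lower. *Rap1b*, of the Rap family on which plexins act, fell from 255 ± 1.31 to 187 ± 13.6 CPM (log2 fold change -0.45 ± 0.06, edgeR adjusted p = 0.00402), and *Cdc42* (-0.20) was also lower. *Rap1a*, of the same family, was not called (-0.0049 ± 0.05, edgeR adjusted p = 0.949). The R-Ras family genes *Rras2* (0.33) and *Mras* (1.33) rose, and *Rras* itself was not called (0.01 ± 0.16, edgeR adjusted p = 0.980). Of 15 tested kinases and cytoskeletal effectors, 6 were higher and 5 lower. *Dpysl2*, encoding the collapsin response mediator CRMP2, fell (-0.58 ± 0.10, edgeR adjusted p = 0.00791), as did the kinase gene *Limk2* (-0.17). *Pak1*, a kinase downstream of Rac, rose from 3.16 ± 0.0324 to 8.52 ± 1.03 CPM (1.43 ± 0.15, edgeR adjusted p = 0.00203), and *Mical2* (2.26), *Fes* (0.43) and *Gipc1* (0.41), whose protein binds the Neuropilin-1 tail, were also higher.

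Marker lists of cell types went in both directions. For comparison, 21.1% of all tested genes were called higher and 18.9% lower. Beside the macrophage list, at a median log2 fold change of 1.98, all 6 germinal center B cell markers were higher (median 2.51, summed 40.2 and 54.6 against 243 and 191 CPM), as were all 7 marginal zone markers (median 0.67) and 5 of 6 plasma cell markers (median 1.01). Of 8 conventional dendritic cell markers, 4 were higher and 1 lower (median 0.86). Of 10 B cell markers, 8 were lower (median -0.25), and of 6 follicular B cell markers 4 were lower and 0 higher by edgeR (median -0.63; 0 higher at an unadjusted p under 0.05). Of 7 plasmacytoid dendritic cell markers, 0 were higher and 1 lower by edgeR (0 higher at an unadjusted p under 0.05). The lower one was *Ly6d*, the most abundant of this list, at 766 ± 39.7 and 601 ± 30.5 CPM (-0.35 ± 0.06, edgeR adjusted p = 0.00962). T cell markers, of which 1 of 9 was higher, summed to between 54.7 and 73.5 CPM. Of tested markers, 1 of 5 for neutrophils, 2 of 6 for NK cells, 0 of 7 for erythroid cells and 1 of 3 for megakaryocytes were higher. In these lists 0 were lower by edgeR. Of the 9 endothelial markers 6 were tested, with 1 higher and 1 lower. The higher one was *Stab2*, a scavenger receptor of sinusoidal endothelium, at 11.3 ± 1.44 and 40.7 ± 8.18 CPM (log2 fold change 1.85 ± 0.16, edgeR adjusted p = 0.00148), and the lower one *Pecam1*, which many leukocytes also express, at 309 ± 1.20 and 259 ± 7.70 CPM (-0.26 ± 0.05, edgeR adjusted p = 0.009). Among the others, *Emcn* had no count in any library, *Tie1* and *Tek* had at most 4 counts, and *Cdh5* had 1.79 ± 0.0635 and 2.40 ± 0.0599 CPM. The 7 stromal markers summed to at most 0.797 CPM. The part of any of these cell types in the rise of the members was not tested.

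Within a genotype the members did not all follow the macrophage list. The median log2 difference of replicate 2 from replicate 1 over that list was 0.39 in MIZ-1WT and -0.68 in MIZ-1△POZ cells. *Nrp1* (0.19 and -0.33) and *Plxnb2* (0.30 and -0.16) had the same signs at smaller size. *Plxnd1* (-0.29 and 0.20), *Sema4a* (-0.26 and 0.33), *Sema4d* (-0.19 and 0.53) and *Plxnc1* (-0.15 and 0.11) had the opposite signs in both genotypes. Other marker lists showed one of these patterns or neither. The germinal center list (0.48 and -0.40) and the plasma cell list (0.14 and -0.07) had the signs of the macrophage list. The B cell list (0.02 and 0.11) and the follicular list (0.07 and 0.21) were positive in both genotypes. The plasmacytoid dendritic cell list (-0.23 and -0.38) was negative in both. The marginal zone list (-0.08 and 0.11) and the T cell list (-0.58 and 0.27) had the opposite signs. *Sema7a* differed by 0.00 and 0.02, *Plxna1* by -0.11 in both genotypes, and *Sema4b* by 0.07 and 0.16. With 1 difference per genotype, these values are a description.

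**Figure D4:**
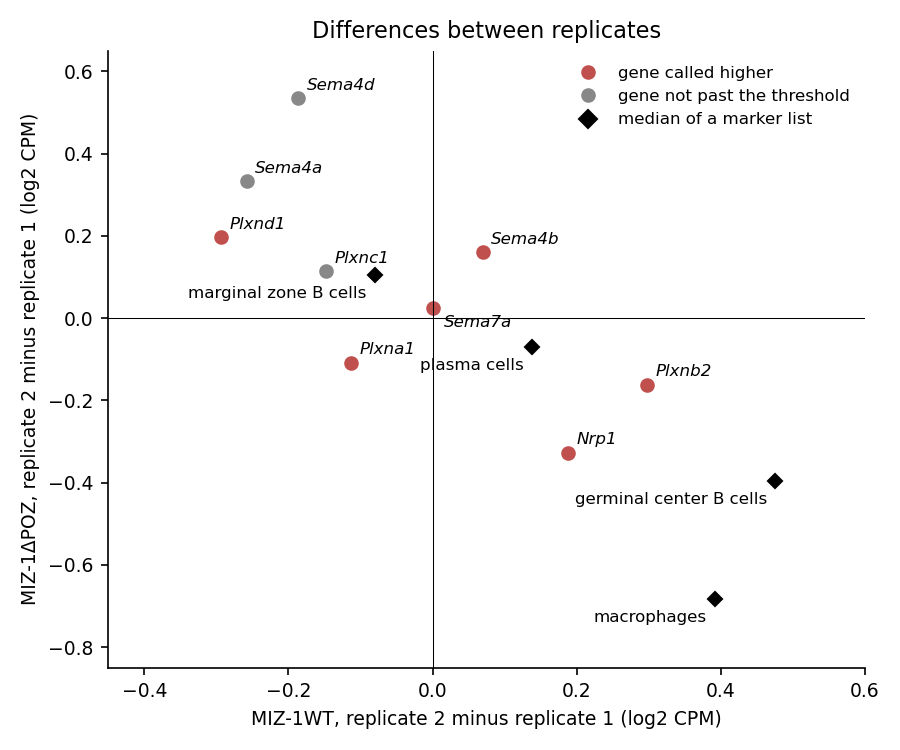
Each point gives the log2 CPM difference of replicate 2 from replicate 1 in MIZ-1WT (x axis) and MIZ-1△POZ cells (y axis), for the 9 members and, as medians, for marker lists. *Nrp1* and *Plxnb2* lie in the quadrant of the macrophage, germinal center and plasma cell lists. *Plxnd1*, *Sema4a*, *Sema4d* and *Plxnc1* lie in the opposite one, as does the marginal zone list.

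The genes with the most similar pattern were found by the Euclidean distance of centred log2 CPM over the 4 libraries, among 9472 protein-coding genes of mean CPM at least 5. For *Nrp1* they were *Lst1* (0.033), *Kcna2* (0.054) and the macrophage marker *Cd68* (0.061). The nearest to *Plxnb2* were *Cln8* (0.054), *Cip2a* (0.085) and *Arhgap19* (0.092), and to *Sema7a* *Gbp7* (0.052), *St7* (0.055) and *Ncapd2* (0.060). Within a distance of 0.3 there were 122, 88 and 184 genes, so over 4 libraries many genes share each pattern.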

How the data were processed

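RNA was depleted of ribosomal RNA and read as stranded paired-end libraries. The authors trimmed reads with Trimmomatic, aligned them to mm10 with TopHat2 and counted them per Ensembl gene with HTSeq. The submitters' processing notes give TopHat2 version 2.1.0, and the paper's methods name a different version. The deposited values are raw counts. Strand setting and annotation release are not given in the sources used here. Rows for reads outside genes (21.1–27.2% of reads in no feature, 0.281–0.302% ambiguous, 42.8–44.1% not unique) were left out of library sizes. No column was left unmapped.

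Counts were fitted with edgeR 4.0.16 in R 4.3.3 (TMM, quasi-likelihood, at least 10 counts in at least 2 libraries, threshold 0.05 after Benjamini-Hochberg adjustment). Log CPM used a prior count of 2. Exon lengths came from GENCODE on GRCm38. The script was tested on simulated data. Members and gene lists were chosen with earlier results of these data known. Named were all members, up to 4 pathway genes per role and direction with the smallest p (and, chosen after their values were seen, *Plxnb1*, *Sema4c*, *Rras*, *Rap1a* and the scarce endothelial markers), up to 3 markers per list by mean CPM, and up to 3 nearest genes for 3 members; a few pathway genes that this rule names are not reported here. Alternatives were RLE size factors, DESeq2 1.42.0, other filters, the study's limits, a replicate block, no immunoglobulin segments, and each library left out. The study's limits were a log2 fold change of 0.6 and a p limit of 0.05, applied to the unadjusted edgeR p.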

Additional observations from a re-analysis of the deposited data

How the results depend on the processing

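With RLE size factors, DESeq2, no filter, a mean of at least 1 CPM, a replicate block or no immunoglobulin segments, 6 members were called. Over all genes, 5818 of 14554 (RLE), 5032 of 14910 (DESeq2) and 5952 of 21025 (no filter) were called. The calls were 5291 of 12217 with the mean filter, 4732 of 14554 with the block and 5795 of 14355 without immunoglobulin segments. Replicate numbers were not treated as pairs: their deviations had a correlation of -0.07, with only 2 pairs. The fit with the replicate block gave 4732 calls over all genes and 1.64 for the log2 fold change of *Nrp1*. The study's limits called 5 members, 2960 genes (2188 higher, 772 lower) and 24 pathway genes (3 lower). Leaving out 1 library, where the lone sample is assumed to vary like the other genotype, gave 5 to 8 members called, a median log2 fold change of the members of 0.50 to 0.80, 2222 to 5581 genes called (1374 to 2955 higher, 848 to 2626 lower) and 16 to 35 pathway genes called (12 to 24 higher, 4 to 11 lower). *Sema4d* changed sign across libraries left out (0.31 without MIZ-1△POZ replicate 1), being below 0 without MIZ-1WT replicate 2 (-0.03) and without MIZ-1△POZ replicate 2 (-0.21). The cause was not tested. *Nrp1*, *Plxnb2*, *Plxna1*, *Plxnd1* and *Sema7a* were called higher under all 10 alternatives fitted. At this depth 6 of the 7 class 3 semaphorins had too few counts to be tested.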
